A study of Canis lupus familiaris with 8 samples.

Results

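FCER1G and NCR3 are 2 of the 20257 genes counted in this single-cell study of canine TCRαβ+ T cells. They were taken as the rows of those names in the gene list, with the identifiers ENSCAFG00000012878 for FCER1G and ENSCAFG00000030919 for NCR3 (CanFam 3.1). The cells were sorted by flow cytometry from blood mononuclear cells of 4 healthy Beagles. All had received routine vaccinations, and the study names no other treatment. The sorted cells were frozen, thawed together and run with 5' single-cell RNA sequencing and V(D)J sequencing, with 1 library of each kind for every animal. The animals were a 5-year-old female (dog 1), a pair of 7-year-old males (dogs 2 and 3) and a 9-year-old male (dog 4). The dog was the replicate, so n = 4 for each comparison, and age and sex were not compared. Cells were grouped by coreceptor transcripts, by carriage of a TRAV9-11/TRAJ28 rearrangement, and by the number of cells that shared a TRB rearrangement. The study ties TRAV9-11/TRAJ28 to MAIT-like cells but also reports it in part of its CD8A effector memory and innate-like effector cells. Carriers are therefore not MAIT-like cells alone.

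FCER1G encodes the Fc receptor gamma chain, a small membrane adaptor with an immunoreceptor tyrosine-based activation motif (ITAM). It was first described beside the Fc receptors of mast cells, basophils and myeloid cells, and it also serves receptors of natural killer (NK) cells. NCR3 encodes NKp30, an activating receptor with hardly any signalling tail of its own, which relies on ITAM adaptors such as the Fc receptor gamma chain or CD3ζ. After ligand binding, Src family kinases phosphorylate the ITAM, the kinases SYK or ZAP70 dock there, and scaffolds such as LAT, LAT2 and SLP-76 pass the signal on. Conventional αβ T cells signal through the CD3 complex, and the Fc receptor gamma chain is better known in innate-like T cells. The row for CD3ζ (CD247) was not found by symbol and was not analysed here.

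Cells with the same TRBV, TRBJ and TRB junction nucleotides within a library were counted as 1 clone. The receptor sequences are shown first, because both genes were later described clone by clone. Of 675 CD8A single-positive (sp) cells that carried TRAV9-11/TRAJ28, 669 had a TRA junction of 48 nucleotides, and 32 of the 238 different junctions were found in at least 2 dogs. The 9 carrier clones of 10 or more cells had the following TRA junctions, 5′ to 3′, with capitals at the 11 positions that differ among the 9.
dog 3 TRBV25/TRBJ2-5 clone: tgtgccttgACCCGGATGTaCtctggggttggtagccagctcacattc
dog 1 TRBV25/TRBJ2-1 clone: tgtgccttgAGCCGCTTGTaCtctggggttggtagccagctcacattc
dog 4 TRBV28/TRBJ1-2 clone: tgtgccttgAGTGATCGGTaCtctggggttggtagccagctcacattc
dog 4 TRBV28/TRBJ2-5 clone: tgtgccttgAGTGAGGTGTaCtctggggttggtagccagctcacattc
dog 1 TRBV28/TRBJ2-6 clone: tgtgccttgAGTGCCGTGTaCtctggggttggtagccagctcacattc
dog 2 TRBV18/TRBJ2-1 clone: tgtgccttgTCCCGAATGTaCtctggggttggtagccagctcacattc
dog 3 TRBV28/TRBJ2-1 clone: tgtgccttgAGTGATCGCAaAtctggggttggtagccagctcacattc
dog 1 TRBV28/TRBJ2-3 clone: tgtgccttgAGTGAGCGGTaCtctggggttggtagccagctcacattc
dog 4 TRBV18/TRBJ1-2 clone: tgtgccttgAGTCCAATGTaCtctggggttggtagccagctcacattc

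Outside the carriers, the clones that showed FCER1G in the fewest and in the most of their cells had other rearrangements. The TRB junctions of the largest clone with FCER1G in under 10% of its cells, and of the largest with FCER1G in over 80%, are given for dogs 1, 2 and 4, and that of the former kind for dog 3, in lower case throughout.
dog 1 TRBV25/TRBJ2-6 clone: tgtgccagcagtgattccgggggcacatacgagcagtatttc
dog 1 TRBV16/TRBJ2-1 clone: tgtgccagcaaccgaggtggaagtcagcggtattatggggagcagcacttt
dog 2 TRBV25/TRBJ2-5 clone: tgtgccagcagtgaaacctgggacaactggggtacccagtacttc
dog 2 TRBV26/TRBJ1-6 clone: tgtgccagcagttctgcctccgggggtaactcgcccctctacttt
dog 3 TRBV5-2/TRBJ1-2 clone: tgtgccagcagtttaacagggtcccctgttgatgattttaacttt
dog 4 TRBV16/TRBJ2-1 clone: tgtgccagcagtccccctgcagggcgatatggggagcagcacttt
dog 4 TRBV3-1/TRBJ2-1 clone: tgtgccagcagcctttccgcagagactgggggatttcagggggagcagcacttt

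The gene expression libraries held 7428 to 8873 barcodes and 26904346 to 35661623 unique molecular identifiers (UMIs, each standing for 1 captured transcript). With 500 to 20000 UMIs and at most 10% mitochondrial UMIs, 31909 of 33125 barcodes were kept, with median UMIs of 3599 to 3931.5 per cell. Between 266 and 311 barcodes of each library also occurred in another library, and no library stood apart from the rest. A cell was called CD8A sp with at least 1 CD8A and no CD4 UMI, and CD4 sp in the opposite case. This gave 691, 1427, 2280 and 2029 CD8A sp cells and 3658, 3629, 2716 and 3244 CD4 sp cells in dogs 1 to 4. CD3E, a subunit of the T cell receptor complex, was counted at 1239 ± 79.0 CPM (UMIs of the gene over all UMIs of the class, scaled to 1000000 UMIs, SD over 4 dogs) in CD8A sp cells and at 1280 ± 83.2 CPM in CD4 sp cells. Of the basophil and myeloid genes that FCER1G is best known beside, FCER1A, MS4A2, HDC, CPA3, CSF1R, SPI1 and AIF1 had no UMI in any kept cell. Other members of the same marker lists were counted. GATA2, KIT, MPO, CD68 and LYZ were found in 0.00313 to 0.191% of kept cells, ITGAM in 6.62% and S100A8 in 77.5%.

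Both genes were counted mostly in cells with CD8A. The FCER1G level in CD8A sp cells was 273, 429, 233 and 451 CPM in dogs 1 to 4, and in CD4 sp cells it was 0.421, 1.55, 0.795 and 1.55 CPM. NCR3 stood at 293, 127, 197 and 231 CPM in CD8A sp cells and at 0.562, 2.70, 1.5 and 5.53 CPM in CD4 sp cells. For either gene the lowest CD8A sp value lay far above the highest CD4 sp value. Summed per dog and class and tested with edgeR over 10118 genes, FCER1G was higher in CD8A sp cells by 8.28 ± 0.351 on the log2 scale (SE, adjusted p = 2.7e-06) and NCR3 by 6.34 ± 0.484 (adjusted p = 4.8e-05). Both genes thus fell among the 7.51% of genes called higher in CD8A sp cells, while 6.59% were called lower. With the dog as a block these shares were 13.5% and 13.6%, and the log2 differences of FCER1G and NCR3 were 8.31 and 6.31. Both genes could pass the filter on low counts only through CD8A sp cells, so their calls are no support. Without that filter the log2 differences were 8.27 and 6.33. Cells with neither coreceptor held FCER1G at 12.6, 9.18, 14.7 and 15.1 CPM and NCR3 at 4.89, 3.89, 8.04 and 11.1 CPM, below the CD8A sp values and above the CD4 sp values in each dog. In cells with both coreceptors FCER1G was counted at 44, 206, 43.0 and 112 CPM and NCR3 at 114, 36.6, 60.8 and 110 CPM, and these cells were deeper, with median UMIs of 5418 to 5955.

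**Figure D1:**
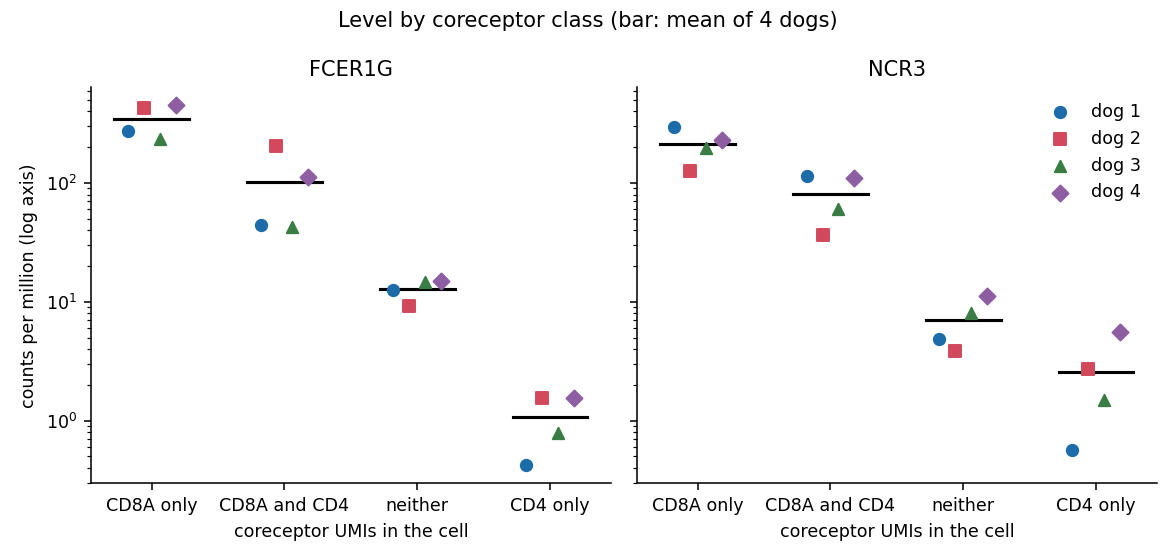
FCER1G (left) and NCR3 (right) in CPM, on a log axis, in 4 classes of cells set by coreceptor transcripts, with a point per dog and a bar at the mean of 4 dogs. In CD8A-only cells FCER1G lay between 233 and 451 CPM and NCR3 between 127 and 293 CPM, against at most 1.55 and 5.53 CPM in CD4-only cells.

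The share of CD8A sp cells with at least 1 FCER1G UMI was 21.0, 27.0, 16.1 and 27.9% in dogs 1 to 4 (mean 23.0 ± 5.56%, SD). In CD4 sp cells, which served as the background for RNA shed by other cells, it was 0.164, 0.579, 0.295 and 0.370%, at median UMIs of 3747 to 4091.5 per cell against 3586.5 to 3932 in CD8A sp cells. For NCR3 the share was 48.6, 30.1, 41.4 and 49.7% of CD8A sp cells and 0.219, 1.02, 0.479 and 1.97% of CD4 sp cells. With cells thinned to 2000 UMIs, and shallower cells left out, FCER1G was seen in 18.6, 25.7, 15.3 and 27.4% and NCR3 in 35.5, 21.8, 30.2 and 37.2% of CD8A sp cells. Thinning took away more of the NCR3 share than of the FCER1G share. Dog 2 had the lowest share and level of NCR3 and dog 3 the lowest of FCER1G.

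FCER1G was counted at several UMIs in most of the cells that held it. Of 1463 positive CD8A sp cells, 164 (11.2%) held a single UMI and 1150 (78.6%) held at least 3, with a median of 5 and up to 34. The 47 positive CD4 sp cells looked different, since 40 of them held 1 UMI and 2 held 3 or more. NCR3 was counted more sparsely in its positive cells: 1343 of 2718 (49.4%) held 1 UMI, 645 (23.7%) held at least 3, and the highest count was 9. Positive and negative cells had like depth, with median UMIs of 3721 and 3727.5 for FCER1G and of 3741.5 and 3698 for NCR3.

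**Figure D2:**
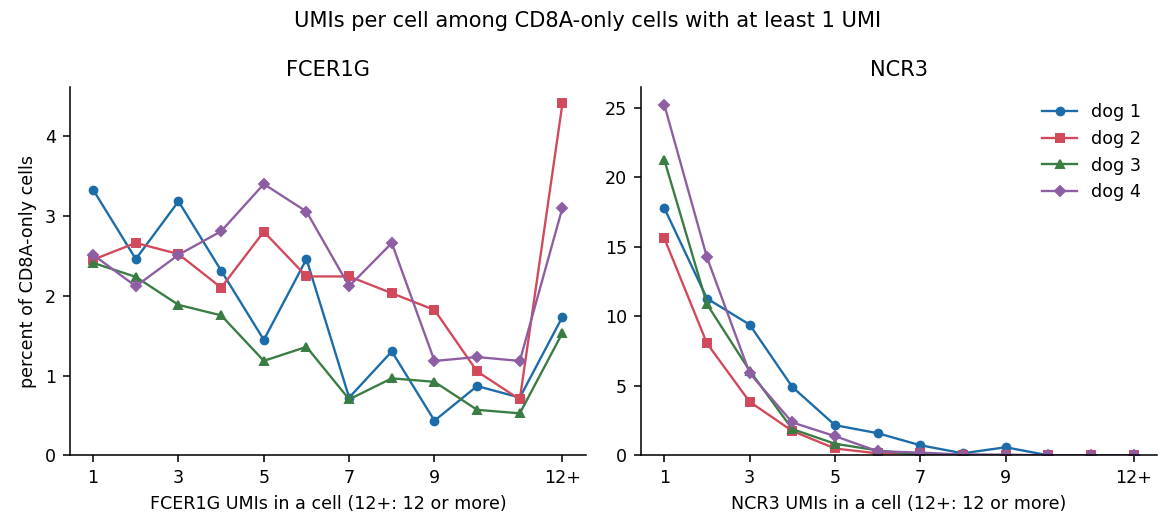
Percent of CD8A-only cells with each number of UMIs of FCER1G (left) and NCR3 (right), a line per dog, cells with 0 UMIs left out of the drawing and cells with 12 or more joined in the last point. NCR3 cells with 1 UMI were the most frequent in each dog, whereas the FCER1G cells spread over 1 to 12 and more UMIs, and 78.6% of them held at least 3.

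The adaptor and the receptor overlapped without matching. Both transcripts were found in 15.9, 15.9, 10.9 and 17.4% of CD8A sp cells of dogs 1 to 4. NCR3 without FCER1G was found in 32.7, 14.2, 30.5 and 32.3%, and FCER1G without NCR3 in 5.07, 11.1, 5.13 and 10.5%. Among FCER1G-positive cells, 75.9, 58.8, 68.0 and 62.4% also held NCR3, against 41.4, 19.4, 36.3 and 44.8% of FCER1G-negative cells. The higher share on the FCER1G-positive side was seen in 4 of 4 dogs, and in the thinned cells as well (61.9, 42.2, 49.2 and 44.9% against 29.5, 14.7, 26.7 and 34.3%). In CPM, NCR3 reached 471, 267, 336 and 269 in FCER1G-positive cells and 242, 77.6, 170 and 216 in FCER1G-negative cells. That log2 difference of 0.88 ± 0.303 did not pass the test over 8505 genes (adjusted p = 0.22), but it did with the dog as a block (0.95, adjusted p = 0.0067). Among cells whose TRB was not shared with another cell, NCR3 was higher by 1.82 ± 0.289 (adjusted p = 0.00067), with 389, 301, 267 and 243 CPM against 116, 48.8, 40.3 and 126 CPM.

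Most clones held FCER1G in nearly all or nearly none of their cells. Among 73 clones of 10 or more CD8A sp cells (2121 cells), 44 had no FCER1G-positive cell, 53 had FCER1G in under 10% of their cells, 14 had it in over 80%, and only 6 lay between. All 119 cells of the dog 4 TRBV3-1/TRBJ2-1 clone were positive (exact binomial 95% interval 96.9 to 100%), with a median of 7 UMIs. None of the 146 cells of the dog 3 TRBV5-2/TRBJ1-2 clone was (0 to 2.49%), although 76.0% of them held NCR3. The same was seen in the 201 clones of exactly 2 CD8A sp cells, where FCER1G was found in neither cell of 151 clones, in both cells of 44, and in a single cell of 6. NCR3, counted at fewer UMIs per cell, was found in 10 to 80% of the cells in 59 of the 73 clones, in over 80% in 9, and in none of the cells in 5. Of the 201 clones of 2 cells, 86 had NCR3 in neither cell, 68 in a single cell and 47 in both.

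NCR3 was common in large clones with and without the adaptor. In the 14 clones with FCER1G in over 80% of cells, the NCR3 share ran from 27.3 to 90.9% with a median of 56.4%, and in the 53 clones with FCER1G in under 10% the median was 54.5%. Of these 53 clones, 30 had NCR3 in more than 50% of their cells. The TRB junctions shown above include such pairs. In dog 2 the TRBV25/TRBJ2-5 clone of 60 cells held FCER1G in none (0 to 5.96%) and NCR3 in 71.7%, whereas the TRBV26/TRBJ1-6 clone of 29 cells held them in 100% and 48.3%. Clones with neither gene were also found, such as the dog 2 TRBV4-3/TRBJ1-6 clone with 0 of 50 cells positive for either (0 to 7.11%). A few clones could weigh on a dog's total: in dog 4 the 5 clones with the most FCER1G-positive cells held 67.0% of such cells with a single TRB, against 27.1 to 47.0% in dogs 1 to 3.

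**Figure D3:**
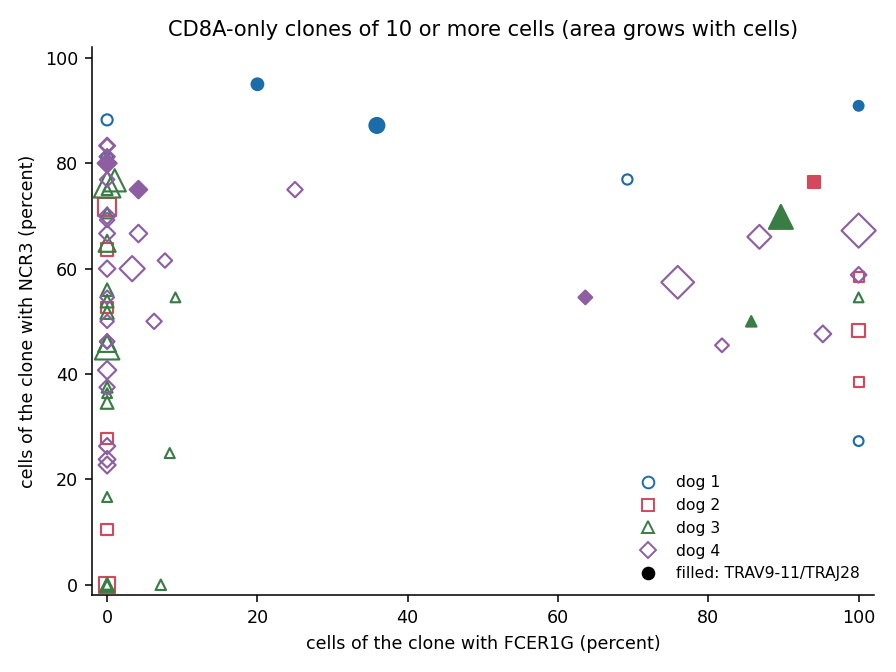
Percent of a clone's cells with FCER1G (horizontal axis) against percent with NCR3 (vertical axis) for 73 CD8A-only clones of 10 or more cells, with a symbol per dog, area growing with the number of cells and filled symbols for TRAV9-11/TRAJ28 clones. For FCER1G, 53 clones lie under 10% and 14 over 80%, while 59 clones lie between 10 and 80% for NCR3.

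TRAV9-11/TRAJ28 carriers were richer in NCR3 in each dog. There were 153, 181, 244 and 97 such CD8A sp cells, compared with 360, 871, 1395 and 1271 CD8A sp cells with another TRA. NCR3 stood at 694, 385, 397 and 471 CPM in carriers and at 171, 95.4, 164 and 216 CPM in the others. The log2 difference was 1.6 ± 0.241 (adjusted p = 0.0024), one of the 2.49% of 7463 genes called higher in carriers, while 2.04% were called lower. With the dog as a block it was 1.61 (adjusted p = 1.0e-07), and 4.53% and 3.78% of genes were called. NCR3 was detected in 86.3, 73.5, 70.1 and 78.4% of carriers and in 36.7, 25.6, 37.5 and 50.6% of the others. Carriers were the shallower cells, with median UMIs of 3299 to 3698 against 3895 to 4286.

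FCER1G in carriers differed between dogs. Its level was 521, 1163, 1074 and 258 CPM in carriers and 192, 339, 139 and 471 CPM in the others, so that carriers were higher in dogs 1 to 3 and lower in dog 4. The shares of positive cells were 43.1, 75.1, 78.3 and 23.7% against 12.2, 19.9, 7.17 and 27.2%. Over the 4 dogs, the log2 difference of 1.43 ± 0.419 did not pass the test (adjusted p = 0.080), and it did with the dog as a block (1.48, adjusted p = 0.0069). Without dog 4 it was 2.04 (adjusted p = 0.0065). Without dog 1, 2 or 3 it was 1.43, 1.26 and 0.98 and did not pass (adjusted p = 0.21, 0.33 and 0.33).

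Carrier clones were uneven, and not in dog 4 alone. In dog 3 a clone of 116 cells, 104 of them FCER1G-positive, made up 48.1% of the cells in carrier clones. The largest made up 33.3% in dog 4. In dog 3 FCER1G was found in 89.2% of cells in carrier clones of 10 or more cells and in 69.6% of those with 1 CD8A sp cell. The 3 carrier clones of 10 or more cells in dog 4 held FCER1G in 8 of 65 cells (12.3%), while 8 of its 19 carrier clones with 1 CD8A sp cell were positive (42.1%). On the other side stood the 119-cell clone that was wholly FCER1G-positive and whose most frequent TRA used TRAV24. It made up 8.47% of the dog 4 CD8A sp cells with a single TRB in clones of another TRA. Such clones were counted whole if any of their cells had a TRA. When each clone was given equal weight, FCER1G was found in 46.6, 75.3, 66.6 and 38.7% of carriers and in 9.91, 17.3, 11.5 and 14.3% of the others, and carriers were higher in 4 of 4 dogs. With 1 cell per clone, the deepest by UMIs, the log2 difference was 1.75 ± 0.195 (adjusted p = 1.6e-05). The equal weighting of clones and this setting were chosen after the data were seen. NCR3 with equal clone weight was found in 83.1, 73.6, 60.8 and 80.4% of carriers and in 27.0, 17.3, 20.03 and 40.3% of the others.

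**Figure D4:**
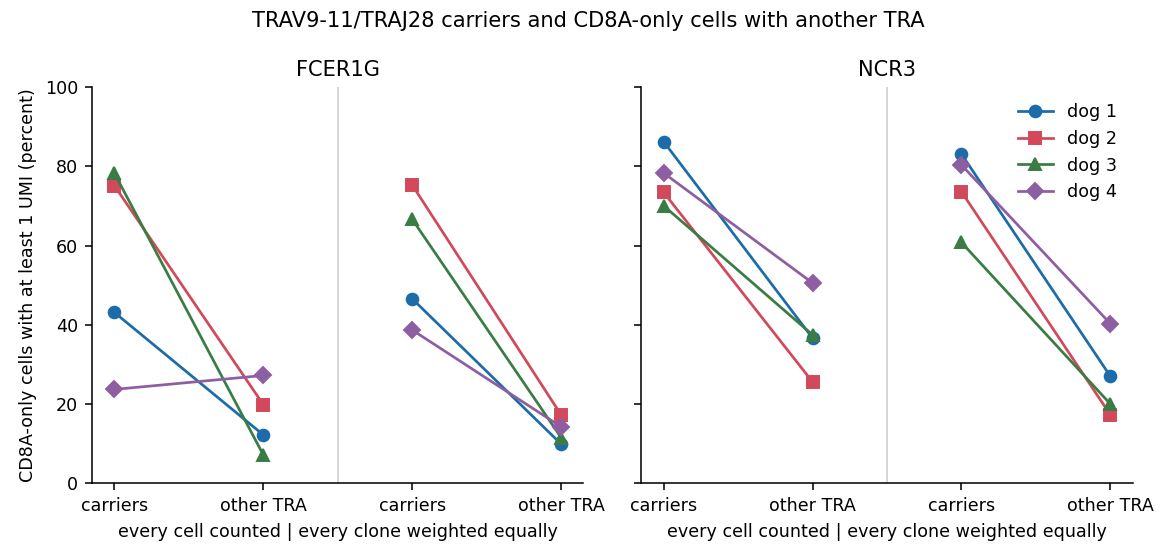
Percent of CD8A-only cells with at least 1 UMI of FCER1G (left) and NCR3 (right) in TRAV9-11/TRAJ28 carriers and in cells with another TRA, a line per dog, counted over cells (first pair of each panel) and with equal weight per clone (second pair). FCER1G in dog 4 was 23.7% in carriers and 27.2% in the others over cells, and 38.7% and 14.3% over clones.

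Carrier clones with near-identical TRA junctions could differ in FCER1G. The dog 4 TRBV28/TRBJ1-2 clone, the third in the list above, had no FCER1G in 30 cells (0 to 11.6%) and NCR3 in 80%. The same TRA junction was found in 8 CD8A sp cells of dog 2, of which 4 held FCER1G and 6 held NCR3, and in 2 cells of dog 3, both with FCER1G. The dog 1 TRBV28/TRBJ2-3 clone was FCER1G-positive in 100% of 11 cells and the dog 1 TRBV28/TRBJ2-6 clone in 20% of 20 cells, while both held NCR3 in over 90%. Of the 9 carrier clones, 4 had FCER1G in over 80% of cells, 2 in under 10% and 3 between, and none had NCR3 in under 50%.

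Neither transcript was limited to TRAV9-11/TRAJ28 carriers. CD8A sp cells with TRAV9-11 and another TRAJ held FCER1G in 27.9, 6.45, 3.64 and 39.0% and NCR3 in 34.9, 50.5, 35.2 and 54.7% (43, 93, 165 and 190 cells). The 2 higher FCER1G shares rested largely on single clones. In dog 4, with 74 positive cells, a TRAV9-11/TRAJ20 clone (TRBV3-1/TRBJ2-3) held FCER1G in 46 of 53 cells, of which 48 had a TRA. In dog 1, with 12 positive cells, a TRAV9-11/TRAJ31 clone (TRBV10/TRBJ2-3) held it in 9 of 13 cells. In cells with TRAV24, FCER1G was found in 13, 31.2, 12.5 and 77.5% of 54, 154, 56 and 178 cells, and NCR3 in 48.1, 31.2, 25.0 and 57.9%. The dog 4 value for TRAV24 includes the 119-cell clone. Within carriers of dogs 1 to 3 the NCR3 share was close to equal with and without FCER1G. The transcript was found in 84.8, 74.3, 70.7 and 87.0% of FCER1G-positive and in 87.4, 71.1, 67.9 and 75.7% of FCER1G-negative carriers. Among cells with another TRA the shares were 63.6, 51.4, 66.0 and 64.5% against 32.9, 19.2, 35.3 and 45.4%. Carriage without CD8A was rare. Of 9 CD4 sp carriers 1 held NCR3, and of 34 carriers with neither coreceptor 4 held FCER1G and 3 held NCR3.

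Clonal expansion was compared next, between CD8A sp cells whose TRB occurred in 2 or more kept cells of the library (309, 605, 1343 and 1289 cells) and those with an unshared TRB (265, 476, 486 and 322 cells). NCR3 was counted at 446, 154, 247 and 269 CPM in expanded cells and at 158, 113, 81.7 and 141 CPM in unshared cells. It was the higher in expanded cells of 4 of 4 dogs, yet the log2 difference of 1.13 ± 0.286 missed the threshold (adjusted p = 0.095) in a comparison where 0.302% of 8290 genes were called higher. With the dog as a block it passed (1.06, adjusted p = 0.00054), as did 2.91% of genes. NCR3-positive cells made up 30.6, 26.5, 20.2 and 34.8% of unshared cells, and 87.5, 35.9, 54.7 and 59.7% of cells in clones of 20 or more. FCER1G stood at 352, 461, 227 and 519 CPM in expanded and at 230, 375, 273 and 197 CPM in unshared cells, a log2 difference of 0.47 ± 0.238 with dog 3 in the opposite direction (adjusted p = 0.45, and 0.21 with the block). FCER1G was found in 13.2, 26.9, 18.1 and 13.7% of unshared cells and in 22.5, 13.8, 13.2 and 49.2% of cells in clones of 20 or more. Counted over cells, the share in these clones was higher in dogs 1 and 4 and lower in dogs 2 and 3. A few clones weighed on such shares. Of the 272 positive cells in dog 4, 119 lay in the TRBV3-1/TRBJ2-1 clone and 82 in the TRBV1/TRBJ2-3 clone. Its TRBV16/TRBJ2-1 clone of 60 cells held 2.

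In CD4 sp cells the same comparison rested on few UMIs. NCR3 had 1.83, 5.25, 2.69 and 6.56 CPM in expanded cells, which is 1, 19, 6 and 34 UMIs, and 0.693, 1.46, 1.27 and 1.97 CPM in unshared cells. The log2 difference of 1.86 ± 0.386 passed the test (adjusted p = 0.024), beside 2.98% of 9364 genes called higher, and 8.21% with the block (NCR3 1.59, adjusted p = 0.0049). NCR3 could pass the filter on low counts only through expanded cells, so its call is no support. Without dog 2 or without dog 3 the call was lost (adjusted p = 0.23 and 0.10), and without dog 4 NCR3 was filtered out as too low. Expanded CD4 sp cells were also the deeper, with median UMIs of 3923 to 4739 against 3814.5 to 3928, and the part of depth in this difference was not tested. Clone size was counted over kept cells of every coreceptor class. An expanded CD4 sp cell could thus share its TRB with CD8A sp cells. The 1 NCR3 UMI of dog 1 lay in its only CD4 sp cell from a clone of 5 or more. In clones of 2 to 4 cells NCR3 stood at 0.0, 5.84, 1.02 and 1.29 CPM, above unshared cells in dog 2 alone. In clones of 5 or more it was 4.81, 3.99 and 8.82 CPM in dogs 2 to 4. FCER1G was filtered out here, with 1, 9, 2 and 12 UMIs in expanded cells. The difference between the expansion effects in CD8A sp and CD4 sp cells was -0.82 ± 0.641 for NCR3 (adjusted p = 0.94) and -0.76 ± 0.726 for FCER1G (adjusted p = 0.96). Only 0.0107% of 9311 genes were called for this difference, and 0.387% with the block.

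CD8A sp cells with FCER1G were then compared with those without for the genes that act around the adaptor. In this comparison 1.03% of 8505 genes were called higher and 0.882% lower in FCER1G-positive cells, and with the dog as a block 2.79% and 2.62%. Of 17 signalling genes tested from a list of 22, LYN and PLCG2 rose and LAT fell (5 and 2 with the block), and the median log2 difference was 0.09 against 0.00063 over all genes. Of a list of 17 NK and Fc receptor genes, some of which use other adaptors, 5 were tested, and NCR1 and KLRD1 rose (4 with the block). KLRK1, the receptor NKG2D, had 417 ± 80.7 against 300 ± 46.7 CPM (adjusted p = 0.22, and 0.019 with the block), and KLRB1, with 323 ± 174 against 247 ± 160 CPM, did not pass under either fit. In cells of unshared TRB both passed, KLRK1 with a log2 difference of 1.06 ± 0.155 (adjusted p = 0.00031) and KLRB1 with 1.36 ± 0.272 (adjusted p = 0.0046).

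LAT, the scaffold that T cell receptor signalling builds on, was the lower in FCER1G-positive cells of each dog. It was counted at 14.2, 18.1, 23.1 and 19.8 CPM in FCER1G-positive and at 51.9, 63.5, 63.0 and 70.1 CPM in FCER1G-negative cells (log2 difference -1.73 ± 0.138, adjusted p = 0.00017). LAT2, a related scaffold better known in myeloid and B cells and named here after its values were seen, went the other way, with 36.3, 40, 32.9 and 68.7 CPM against 10.0, 7.96, 11.1 and 10.9 CPM (2.15 ± 0.234, adjusted p = 0.0010). Neither pair of ranges overlapped, and those of other genes, such as PLCG2 and IKZF2, did not overlap either. The share of all tested genes for which this held was not counted, so it is a description. LYN, a Src family kinase, rose by 3.04 ± 0.511 (adjusted p = 0.011). It had 44 UMIs in 1463 FCER1G-positive and 16 in 4964 FCER1G-negative cells. This was 12.6, 5.00, 4.91 and 8.85 CPM against 2.28, 0.442, 0.407 and 1.06 CPM. A gene this low could pass the filter on low counts only through FCER1G-positive cells, so the LYN call is no support. PLCG2, the phospholipase that acts downstream of SYK in innate cells, was counted at 60.0, 61.2, 52.6 and 67.4 CPM against 33.7, 18.4, 24.7 and 40.5 CPM (1.02 ± 0.213, adjusted p = 0.036). Its T cell relative PLCG1 had 31.6 ± 7.51 against 49.8 ± 4.16 CPM (-0.75, adjusted p = 0.052, and 0.0044 with the block). SYK was too sparse to test, but all 15 of its UMIs in CD8A sp cells, from each of the 4 dogs, lay in FCER1G-positive cells, and its relative ZAP70 had 244 ± 20.5 against 192 ± 11.5 CPM (adjusted p = 0.12, and 0.046 with the block).

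These values were split further by TRAV9-11/TRAJ28, as a description without a test. LAT2 was counted at 60.8, 70.4, 68.4 and 80.9 CPM in FCER1G-positive cells with another TRA (229 UMIs in 663 cells) and at 3.87, 0.0, 12.5 and 0.0 CPM in FCER1G-positive carriers (9 UMIs in 416 cells). All 13 SYK UMIs of cells with a TRA fell on FCER1G-positive cells with another TRA, and none on the 675 carriers. LAT was low on both counts. It stood at 18.6 ± 6.69 CPM in FCER1G-positive cells with another TRA, at 17.6 ± 5.75 CPM in FCER1G-positive and 21.8 ± 3.51 CPM in FCER1G-negative carriers, and at 67.4 ± 5.27 CPM where both FCER1G and the rearrangement were missing. NCR1, the receptor NKp46, had 51.4 ± 22.4 and 47.8 ± 23.1 CPM in FCER1G-positive and -negative carriers, against 25.0 ± 14.0 and 6.18 ± 2.13 CPM in cells with another TRA. ZBTB16, the transcription factor PLZF of innate-like T cells, had 53.4 ± 7.69 and 68.0 ± 20.5 CPM in carriers, and 17.9 ± 7.51 and 13.6 ± 2.96 CPM in the others. IKZF2 and LYN, both higher with FCER1G over all CD8A sp cells, were not higher in FCER1G-positive carriers on average. IKZF2 had 63.4 ± 18.8 CPM in FCER1G-positive and 94.8 ± 19.05 CPM in FCER1G-negative carriers, against 94.3 ± 16.7 and 21.5 ± 5.46 CPM in cells with another TRA. LYN had 4 UMIs in the 416 FCER1G-positive and 7 in the 259 FCER1G-negative carriers.

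**Figure D5:**
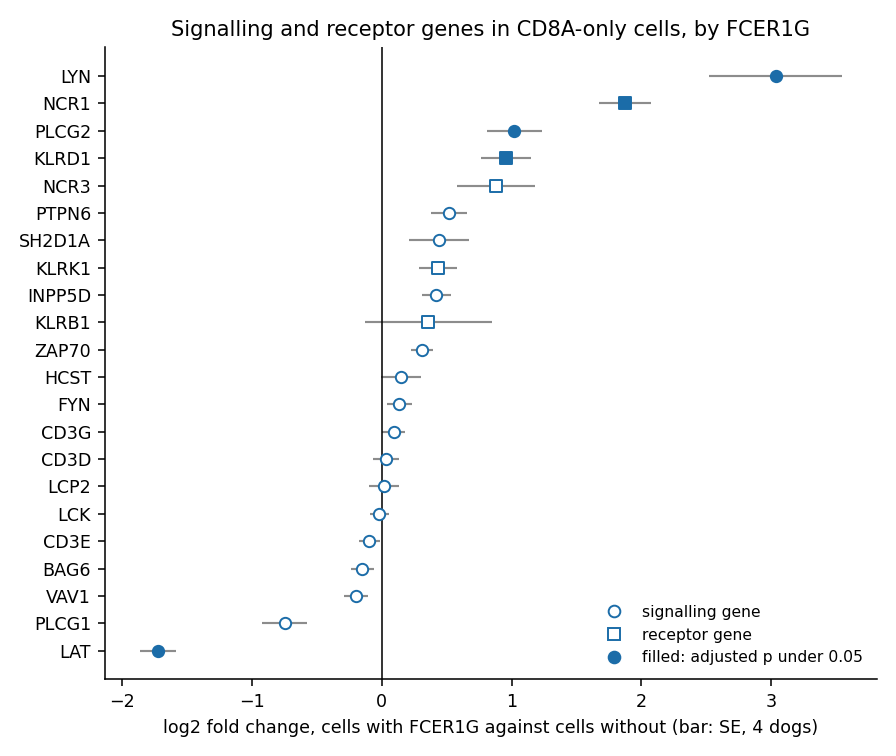
Log2 fold change (horizontal axis, with the SE from the fit without the block as a bar) of 22 signalling and receptor genes between CD8A-only cells with and without FCER1G, filled where the adjusted p was under 0.05. LYN, NCR1, PLCG2 and KLRD1 lie above 0 and LAT below it, at -1.73, while the CD3 genes lie near 0.

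Cytotoxic, innate-like, and naive and memory genes were also counted in the comparison by FCER1G. In each group most genes did not pass without the dog as a block, and most passed with it. Of 11 cytotoxic effector genes tested, CTSW (0.92) and CST7 (0.59) rose, and 9 did not pass. With the block 5 rose and 1 fell, among them perforin (PRF1) with 228 ± 53.6 against 132 ± 58.1 CPM (adjusted p = 0.0047) and granzyme K (GZMK) with 422 ± 137 against 763 ± 236 CPM (adjusted p = 0.0014). Of 16 innate-like genes, 6 rose (10 with the block): IL12RB2, the interleukin-2 receptor chain IL2RB (1427 ± 311 against 575 ± 87.8 CPM), CD160, EOMES, KLRD1 and IKZF2, which encodes Helios (80 ± 18.1 against 26.4 ± 8.17 CPM). Of 10 naive and memory genes, 4 fell (7 with the block): IL7R, CD5, CD28 and the lymph node homing receptor CCR7 (8.81 ± 5.11 against 70.4 ± 28.6 CPM). The 10 symbols with the largest changes were PRSS57, PON2, SLC43A1, PLEKHG5, TNS3, LYN, FGD4, the inhibitory receptor TIGIT and SSH3, all higher (2.84 to 3.84), and CCR7, lower (-3.02). Of these the LYN call is no support, as given above, and the list is a description. With only cells of unshared TRB, 353 genes were called, and 112 were common to both, which is 68.7% of the 163 calls over all cells and 31.7% of the 353. The dogs weighed on the count, which was 107 without dog 1, 67 without dog 2 and 77 without dog 3.

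Markers of other cells were looked at beside these results. Of 13 myeloid markers with a row, 8 were at 0 UMIs, and the summed level of those counted in at most 2% of kept cells was 0.0 to 2.10 CPM in FCER1G-positive and 0.221 to 0.881 CPM in FCER1G-negative cells. ITGAM, on the same list, was counted at 250 ± 111 against 123 ± 82.7 CPM and S100A8 at 979 ± 391 against 1811 ± 545 CPM, and neither passed (adjusted p = 0.39 and 0.18, and 0.027 and 0.00017 with the block). The summed NK markers were at 22.1 to 51.2 CPM in FCER1G-positive and 10.2 to 11.3 CPM in FCER1G-negative cells, of which NCR1 was 34.8 ± 11.5 and 9.53 ± 0.906 CPM, and their part in the results was not tested. The γδ T cell markers came to 0.0 to 2.95 and 0.911 to 3.17 CPM. CD3E was at 1199.9 ± 71.1 and 1251 ± 86.6 CPM.

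NCR3 was examined where the adaptor was not detected, in 226, 202, 695 and 656 FCER1G-negative CD8A sp cells with NCR3 and 320, 839, 1219 and 807 without. Here 0.495% of 8680 genes were called higher and 0.772% lower in NCR3-positive cells, and with the dog as a block 4.0% and 3.73%. FYN, a Src family kinase, was the only called gene of 16 signalling genes (0.53 ± 0.113, adjusted p = 0.045, 6 with the block), and NCR1 was the only called one of 4 receptors (all 4 with the block), with 19.1, 37.7, 17.7 and 13.8 CPM against 0.798, 1.93, 5.25 and 8.14 CPM (adjusted p = 0.036). NCR1 could pass the filter on low counts only through NCR3-positive cells, so its call is no support. LAT was at 58.3 ± 13.6 against 64.7 ± 7.60 CPM and did not pass (adjusted p = 0.86). GZMB, CTSW and CST7 of 11 cytotoxic genes rose (9 with the block), with granzyme B at 2266 ± 449 against 869 ± 401 CPM, and so did IL12RB2, IL2RB and CD160 of 16 innate-like genes (12 with the block). CCR7, LEF1 and CD28 of 10 naive and memory genes fell (5 with the block). The 10 symbols with the largest changes all fell, by 2.44 to 3.85 on the log2 scale (RFLNB, ADAM19, APP, GCNA, CCDC3, GSDMA, CTPS1, PTPRB, CDH1 and PLCL1). In cells of unshared TRB 218 genes were called, 57 of them shared with the 110 calls over all cells (51.8% of the 110 and 26.1% of the 218). There PLCG2 (3.21 ± 0.423), SH2D1A, HCST, ZAP70, PTPN6 and INPP5D rose beside FYN. The total of 110 called genes was 48 without dog 1, 23 without dog 2 and 29 without dog 3.

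The wider groups were counted in the other comparisons too. Of 18 signalling genes tested between CD8A sp and CD4 sp cells, 8 were higher in CD8A sp cells, where 7.51% of all genes were called higher. With the block 12 were higher and PLCG1 was lower, beside 13.5% and 13.6% of all genes. The 8 were SH2D1A, HCST, PLCG2, LCK, FYN, ZAP70, PTPN6 and LYN. PLCG2 went from 0.520 ± 0.599 CPM in CD4 sp to 36.7 ± 9.19 CPM in CD8A sp cells. PLCG2 and LYN, with 28 and 1 UMIs in CD4 sp cells, could pass the filter on low counts only through CD8A sp cells. The count of 8 is therefore no support. Of the 17 receptor genes 11 had a row and 5 passed the filter on low counts, and these were called higher. A gene near 0 in CD4 sp cells, such as NCR1 with 15.3 ± 3.09 against 0.0441 ± 0.0883 CPM, could pass that filter only through CD8A sp cells, so the count is no support. Called higher, too, were 10 of 11 cytotoxic and 13 of 16 innate-like genes, while 7 of 11 naive and memory genes were lower. The largest changes with a symbol were RAB31, GZMA, NCR1, S1PR5, TNS3, TGM2, ITGAM, GZMB and SMPDL3A, all higher by 7.37 to 8.74 on the log2 scale, and SLC16A7, which had no UMI in CD4 sp cells and 2.11 ± 1.04 CPM in CD8A sp cells. NCR1 and SLC16A7 could pass the filter only through CD8A sp cells, so their calls are no support, and the list is a description. ITGAM, an integrin chain of myeloid and NK cells, had 157 ± 86.8 CPM in CD8A sp cells and 0.934 ± 0.813 CPM in CD4 sp cells.

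In carriers, 3 of 16 signalling genes were higher (5 with the block) and LAT was lower, beside 2.49% and 2.04% of all genes (4.53% and 3.78% with the block). SH2D1A, the adaptor SAP of SLAM family receptors, reached 518 ± 73.7 against 182 ± 56.8 CPM, FYN rose by 0.58 and ZAP70 by 0.77. LAT had 16.2, 20.3, 13.4 and 24.9 CPM in carriers and 57.2, 57.0, 59.7 and 58.3 CPM in the others (-1.69 ± 0.172, adjusted p = 0.00011). Of 5 receptors, NCR1 (2.39), NCR3, KLRK1 (0.86) and KLRD1 (1.30) rose, and KLRB1 had 484 ± 267 against 232 ± 135 CPM (adjusted p = 0.32, and 0.00062 with the block). NCR1 could pass the filter on low counts only through carriers, so its call is no support. Of 11 cytotoxic genes PRF1, GZMA, FASLG, GZMB, CTSW and KLRG1 rose and IFNG fell, and of 16 innate-like genes 10 rose, led by ZBTB16 (2.07) and CXCR6 (1.89), while TOX fell by 2.32. IL7R, TCF7, CD5 and CD28 fell of 10 naive and memory genes (with the block 6 fell and 3 rose). The largest changes were in GCSAM, which had no UMI in carriers and 26.3 ± 8.97 CPM in the others, the elafin gene PI3, higher by 4.79, and CCR9, GNG3, RRM2, IFNG, PDLIM1, ZC3H12D, LMNA and CXCR3, with log2 differences of -3.37 to -5.04. GCSAM could pass the filter only through cells with another TRA, so its call is no support, and the list is a description. With 1 cell per clone 362 genes were called, 243 of them shared with the 338 calls over all cells (71.9% of the 338 and 67.1% of the 362), and over all cells the count was 201 without dog 1 and 113 without dog 2.

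In the comparison by expansion in CD8A sp cells, 0.76% of genes were called lower, and 3.67% with the block, beside 0.302% and 2.91% higher. PLCG2 was the called signalling gene (45.5 ± 9.64 against 20.9 ± 3.99 CPM, adjusted p = 0.019), KLRD1 the called receptor and CST7 the called cytotoxic gene, and with the block 3 signalling, 3 receptor and 8 cytotoxic genes rose. Of 16 innate-like genes CD160, TBX21, KLRD1 and CD244 rose (9 with the block). BACH2, CCR7 and LEF1 fell of 11 naive and memory genes (8 with the block). The largest changes all fell, by 2.70 to 4.62 (RFLNB, APP, NMB, RGS10, CCR7, TSPAN5, GNMT, CTPS1, GCNT4 and CCDC3). In CD4 sp cells, where 2.36% of genes were called lower and 7.37% with the block, HCST, LCP2, LAT and INPP5D of 15 signalling genes and NCR3 and KLRK1 of 4 receptors rose with expansion, PRF1 and IFNG rose and CTSW fell of 10 cytotoxic genes, 7 of 14 innate-like genes rose and 6 of 11 naive and memory genes fell. With the block 7 signalling, 3 receptor and 5 cytotoxic genes rose. The NCR3 call among the receptors is no support, as given above. Here, too, the largest changes all fell, with log2 differences of -3.60 to -4.69 (FST, ANGPTL1, RALGPS2, KANK1, BCL11A, BLNK, TEC, OBSL1, COL6A5 and RFLNB). Without dog 2 a single gene was called in this comparison and without dog 3 there were 23.

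Last, genes were ranked by how closely their log2 CPM followed each member over 39 sums of cells by dog and class, from 10 classes set by coreceptor, clone size and carriage. These sums share libraries and depth, so the correlations are given as a description. The classes were also set by CD8A and CD4 UMIs. Any gene counted mostly in CD8A sp cells, and CD8A itself, would therefore rank high with both members over the 39 sums. The symbols closest to FCER1G were CCL5 (r = 0.932), CTSW, FGR, PTPN22, CD96, CD160, ITGAM, GZMA, PLEK and GZMB (r = 0.893), and NCR3 ranked 18th with r = 0.869. The symbols closest to NCR3 were PLCG2 (r = 0.963), GZMB, DOCK5, GZMA, IFITM10, CD160, SLAMF7, RAB31, SNTB1 and CD8A (r = 0.941), with FCER1G at rank 48. Over the 20 sums of CD8A sp classes alone FCER1G and NCR3 had r = -0.058. There, IKZF2 (r = 0.767) was among the 10 closest to FCER1G, which were led by SFT2D1 (r = 0.821), and SYNE1 (r = 0.926), DOCK5, IL12RB2, PLCG2 and KLRG1 were the closest to NCR3.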

How the data were processed

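Gene expression and V(D)J libraries (8 in all) were made from 4 dogs. For both kinds the authors deposited raw counts of UMIs, per gene and cell barcode or per productive rearrangement. Reads had been processed with Cell Ranger 5.0.1 against CanFam 3.1, as the file headers and the study's methods state, and limited to cell barcodes. The caller and gene set behind the V and J calls are not given in the sources used here. Dog 1 came with a gene list of 27980 lines, more than its 20257 matrix rows, and its rows were named by the list of the other dogs instead (log row totals of dog 1 correlated with theirs at r = 0.991, 0.990 and 0.989).

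Levels are CPM, gene UMIs over all UMIs of a class. Shares have exact (Clopper-Pearson) 95% intervals in the tables, which cover counting error only, and depth was made equal by thinning cells to 2000 UMIs. The doublet gate of the sort and the limit of 20000 UMIs were the treatment of doublets, and no doublet caller was run. UMIs were summed per dog and class, leaving out classes with under 10 cells, and tested in R 4.3.3 with edgeR 4.0.16 (TMM, filterByExpr, quasi-likelihood test, Benjamini-Hochberg adjustment over all genes tested, threshold 0.05). DESeq2 1.42.0 and a fit with the dog as a replicate block were alternatives. The SE of a log2 difference is its absolute value over the square root of the F value of the edgeR fit without the block. It is not a spread between dogs. Genes that define a class (CD4 and CD8A, FCER1G, NCR3) were not tested between those classes. The fit without the block was tested on simulated counts without a dog effect. That simulation does not cover the pairing by dog or the fit with the block. Tables and drawings were made with Python 3.11.15, pandas 2.3.3 and matplotlib 3.10.9.

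Classes compared came from the same animals. Deviations from the class means correlated between same-dog sums at r = 0.22 to 0.554 in every pair, so the dog pairs the sums.

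The text names both members, the called members of 12 fixed lists, and per comparison the 10 symbols of largest change among called genes that moved the same way in each dog (segments of the T cell receptor and class-defining genes left out). Likeness is Pearson's r of log2 CPM with a prior count of 2. The members and the lists were chosen with earlier results of these data known, so counts over a list are descriptions. Members were looked at in 84 groups of 4 dogs for a value far from the others, and none was flagged. In CD4 sp clones of 5 or more, NCR3 stood at 299 CPM in dog 1, from 1 UMI in 1 cell, against 3.99 to 8.82 CPM in dogs 2 to 4. One TRB junction is not reported here.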

Additional observations from a re-analysis of the deposited data

How the results depend on the processing

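No log2 difference of the members reversed under any alternative run, and apart from those given here each kept its side of the threshold. Counts of called genes are given where they moved by 1.5 times or more. The dog as a replicate block gave 2742 called genes between CD8A sp and CD4 sp cells, 620 for carriers, 545 for expansion in CD8A sp and 1459 in CD4 sp cells, 36 for the difference between these, 460 by FCER1G and 671 by NCR3. It brought FCER1G in carriers (1.48), NCR3 with expansion in CD8A sp cells (1.06) and NCR3 by FCER1G (0.95) past the threshold, and it changed no other call of the members. DESeq2 called 193 genes for expansion in CD8A sp cells, 14 for the difference, 245 by FCER1G and 189 by NCR3. Without a filter on low counts, 177, 2 and 218 genes were called for expansion in CD8A sp cells, the difference and NCR3, and FCER1G in carriers (1.41) and NCR3 with expansion (1.14) passed. Thinned cells gave 191 genes for carriers, 4 for the difference, 99 by FCER1G and 53 by NCR3, and the NCR3 share of CD8A sp cells was 31.2%. At least 2 coreceptor UMIs gave 49 genes for expansion in CD8A sp cells, 0 for the difference (554 at an unadjusted p under 0.05, edgeR) and 65 by NCR3. Clones of 5 or more as expanded gave 1000 genes in CD4 sp cells and 7 for the difference, and leaving out carriers or cells with rare markers of other cells gave 0 for the difference (507 and 555 at an unadjusted p under 0.05, edgeR). FCER1G in carriers passed with exactly 1 TRA (1.58) and with 1 cell per clone (1.75). Cells of unshared TRB gave 353 genes by FCER1G, with NCR3 at 1.82, and 218 by NCR3.

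Leaving out each dog in turn gave 704 to 1268 called genes between CD8A sp and CD4 sp cells (704 without dog 2, 766 without dog 3), 113 to 263 for carriers, 24 to 73 and 1 to 525 for expansion in CD8A sp and CD4 sp cells, 0 for the difference (396 to 596 at an unadjusted p under 0.05), 67 to 159 by FCER1G and 23 to 85 by NCR3. FCER1G in carriers ran from 0.98 to 2.04 and passed without dog 4, and NCR3 with expansion in CD4 sp cells ran from 1.69 to 2.02 and lost its call without dog 2 or dog 3. For expansion in CD8A sp cells, 24, 35 and 31 genes were called without dogs 1, 2 and 3.

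Leaving out all cells with a UMI of any marker of other cells was planned and not run, since rows such as CD79A were counted in nearly every cell and 207 kept cells would have remained. Markers in at most 2% of cells were used in its place (1365 cells left out). That version, the weighting by clones and the cells of unshared TRB were chosen after seeing the data. NCR3 with expansion in CD4 sp cells was too low to be tested in thinned cells, with at least 2 coreceptor UMIs and without rare markers. A gene at 0 in a cell is not shown to be absent at median UMIs of 3599 to 3931.5 per cell.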
